A study of Mus musculus with 3 samples.

Results

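The rostral migratory system (RMS) of the mouse main olfactory bulb was described from 42641 array spots of 2250425 under tissue. A spot belonged to it when the authors' deposited annotation gave it that region name, and the rule itself used no measured level. The sources used here do not give how the outline was drawn. Poly(A) RNA had been captured on high-density spatial arrays from 3 coronal sections of adult C57BL/6J bulbs at 12 weeks of age. No treatment or allele is given for any section, and each section is 1 sample. A spot is a small area that can hold several cells or a piece of a cell. Counts were therefore summed over all RMS spots of a section, and the section was the replicate.

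The RMS is the bulb's end of the route by which neuroblasts born beside the lateral ventricle reach the olfactory bulb. Chains of these migrating cells travel through sleeves of astrocytes, leave the stream in the bulb core, and settle as granule or periglomerular interneurons. Doublecortin (Dcx) and Sox11 are classic transcripts of the migrating cells, while Mbp marks myelinating oligodendrocytes, which lie in the white matter of the deep bulb.

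The RMS held 32264 spots in section 1, 7491 in section 2 and 2886 in section 3. These gave 16285, 5162 and 1456 counts from 5926, 2955 and 1104 genes. Section 1 thus supplied 71.1% of all 22903 RMS counts and section 3 supplied 6.36%, so each section 3 value rests on few counts. In each section the RMS formed 2 elongated patches, a single patch in each bulb (with 1 further spot in section 3), and 100% of the spots that touched it belonged to the ependymal cell zone (E), the next region outward. The other 7 named regions are the internal and external granule cell layers (GCL-I and GCL-E), the internal plexiform layer (IPL), the mitral layer (M/T), the external plexiform layer (EPL), the glomerular layer (GL) and the olfactory nerve layer (ONL). The spots of E numbered 354341, those of GCL-I 204371 and those of ONL 238377.

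**Figure D1:**
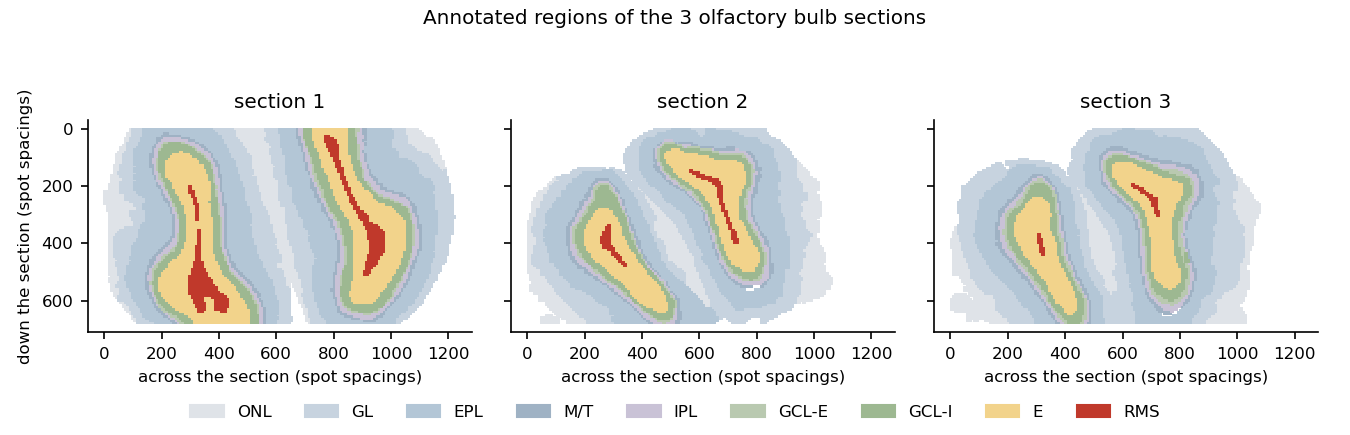
Region named by the annotation across each of the 3 sections, with both axes in spot spacings; each square takes the region of most of its spots. The RMS (red) is a pair of narrow patches inside the ependymal cell zone in every section, and it covered 3.69%, 1.12% and 0.416% of annotated spots in sections 1, 2 and 3.

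RMS spots gave 50.5, 68.9 and 50.5 counts per 100 spots in sections 1, 2 and 3, a mean of 56.6 ± 10.7 (SD, n = 3). In E the same measure was 54.1, 87.9 and 64.7. The RMS was below E in 3 of 3 sections, and its mean log2 difference from the other 8 regions was -0.29 (two-sided exact permutation of region labels within sections, p = 0.229, 729 arrangements, smallest possible p = 0.00137). Without section 1 that difference was -0.59, with an exact permutation p of 0.0123, the smallest that the 2 remaining sections allow. In such summed tissue, fewer cells of a type and less RNA per cell cannot be told apart.

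Levels are given as CPM, a gene's counts per 1000000 named-gene counts of that region and section. Fold changes and their tests came from edgeR's quasi-likelihood model of 1996 genes over all 27 region sums, with section as a block and TMM scaling. P-values were adjusted by the Benjamini-Hochberg method, and a gene was called at an adjusted p under 0.05. The labels do not say which animals the sections came from, so p-values measure only the spread between these sections. The TMM factors of the RMS were 1.02, 1.41 and 3.05, and they moved the median log2 fold change of all genes against the other 8 regions to -0.41, where library sizes alone gave -0.02. Changes below are read against that median, and both scalings are given where they part.

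Against the mean of the other 8 regions, 18 of 1996 genes (0.902%) were called, 5 higher (0.251%) and 13 lower (0.651%). Library sizes alone gave 10 calls (0.501%), 9 higher (0.451%) and 1 lower (0.0501%). All 5 genes called higher were also called with library sizes alone. Of the 13 called lower, 1 was. Without section 1, 0 genes were called higher and 11 lower, and the median log2 fold change of all genes in that fit was -1.02. The higher genes included Mbp and Sept4 of the myelin list, the protease inhibitor Cst3 and the interneuron transcription factor Sp9.

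Mbp encodes myelin basic protein, which packs the layers of the myelin sheath (chromosome 18, 82475146 to 82585637, mm10). It had 105, 10 and 9 counts in the RMS, or 6448, 1937 and 6181 CPM. The highest of the other 8 regions stood at 2856, 2153 and 1581 CPM. The RMS lay above every other region in sections 1 and 3, and in section 2 it lay below IPL and overlapped E at 1706 CPM. Its mean of 4855 ± 2531 CPM (SD, n = 3) was 3.60 times that of the other regions, 1348 ± 487, and the log2 fold change was 1.46 (SE 0.20, edgeR adjusted p = 1.17e-09). With library sizes alone the log2 fold change was 1.79. Without section 1 it was 0.54 beside the all-gene median of -1.02 and was not called (adjusted p = 0.419).

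Sept4 encodes a septin, a filament-forming GTPase present in myelin and glia (chromosome 11, 87568903 to 87590539). It had only 14, 4 and 2 RMS counts, or 860, 775 and 1374 CPM. No other region exceeded 737, 160 and 316 CPM, so the RMS was the highest of 9 regions in 3 of 3 sections. The log2 fold change was 1.64 (SE 0.44, edgeR adjusted p = 0.0314), and the call was lost without any 1 of the sections, with log2 fold changes from 1.43 to 2.02.

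**Figure D2:**
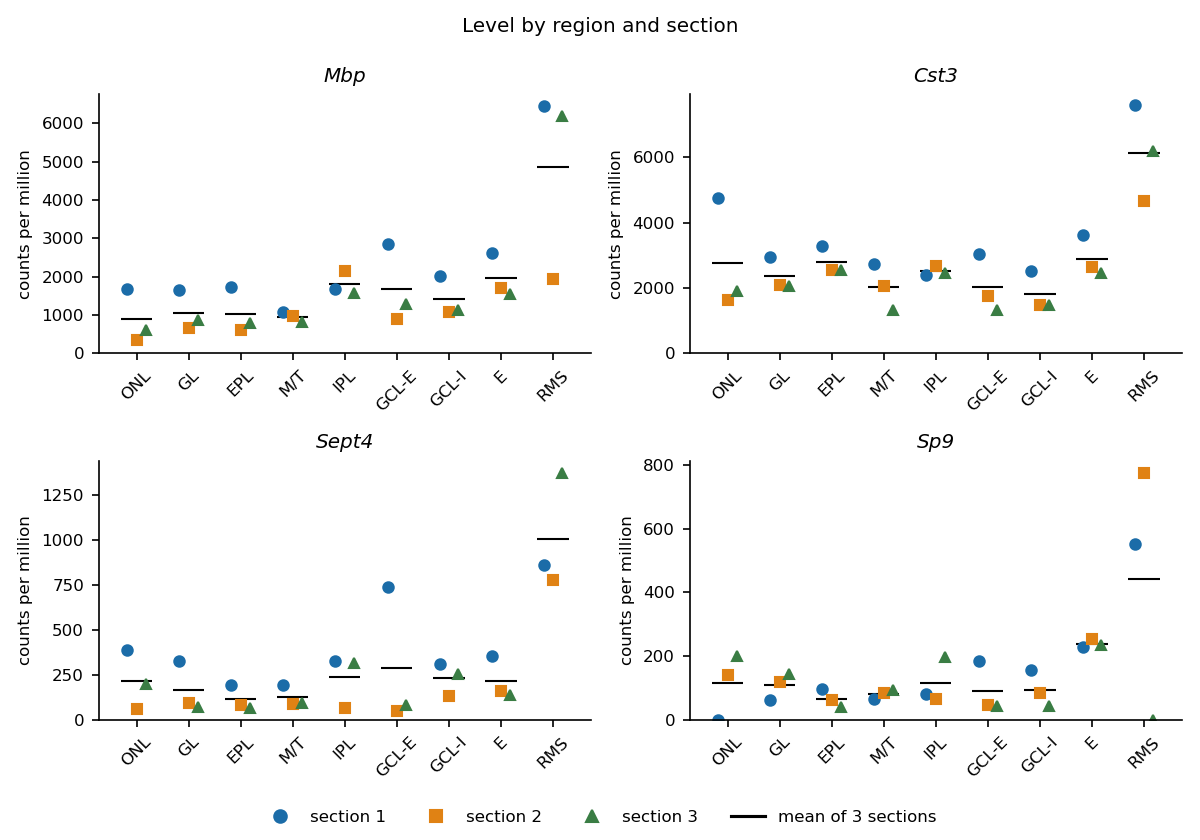
Level of 4 genes called higher in the RMS, in CPM, by region from the bulb surface (left) to its core (right); points are the 3 sections and bars their mean. Cst3 and Sept4 are highest in the RMS in every section, Mbp in sections 1 and 3 and Sp9 in sections 1 and 2.

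The 39 genes of the myelin and mature oligodendrocyte list took 399, 58 and 30 RMS counts, or 24501, 11236 and 20604 CPM, where the highest other region, ONL, had 13461, 11392 and 10798. The RMS was first of 9 regions in sections 1 and 3 and second, just under ONL, in section 2. The myelin list shares 3 genes with the olfactory ensheathing glia list, whose sum was highest in ONL in each section. Mbp itself had 1675, 354 and 619 CPM in ONL. Without Mbp, Scd2, Fth1 and Apod the RMS had 11606, 5037 and 8242 CPM, and the highest other region had 5870, 5250 and 5281. That region was E in section 1. Of 16 tested members of the full list 3 were called higher and 0 lower, and their median log2 fold change was 1.04 beside -0.41 for all genes. With library sizes alone 5 of the 16 were called higher (Mobp and Fth1 in addition), with a median of 1.28 beside -0.02. Mbp did not carry the sum alone: without it the list stood at 18053, 9299 and 14423 CPM, against 10230, 6860 and 7136 in E and 11787, 11039 and 10179 in the highest other region, which was above the RMS in section 2.

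Among the other myelin genes, Mobp, a small basic protein of central myelin, had 1535 and 581 CPM in sections 1 and 2 and no count in section 3. Its edgeR adjusted p against the other regions was 0.0894, and 0.00901 with library sizes alone. Fth1, the ferritin heavy chain that stores iron and is abundant in oligodendrocytes, had 2763, 2325 and 2747 CPM against means of 1451, 960 and 1054 elsewhere. It was the highest of 9 regions in every section. By edgeR it passed with library sizes alone (adjusted p = 0.00454) and not with TMM (adjusted p = 0.142). Qdpr and Bcas1, both enriched in oligodendrocytes, were also first in 3 of 3 sections, from 10 and 7 counts, and neither passed. Mag, Myrf and Enpp2 were counted in section 1 only, with 7, 5 and 5 counts, and Mog, Aspa, Sox10, Hapln2 and Nkx6-2 had none.

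The 12 oligodendrocyte precursor genes had 16, 4 and 0 RMS counts, or 982, 775 and 0 CPM, and E had 852, 1054 and 1189. Cspg5, a proteoglycan, held 7 of the 20, while Ptprz1, Olig1 and Olig2 had 3 each and Cspg4 had 2. Pdgfra, Gpr17 and Neu4 were among the 5 members with no RMS count.

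Cst3 encodes cystatin C, a secreted inhibitor of cathepsins made by astrocytes, microglia and other brain cells (chromosome 2, 148871722 to 148875692). It had 124, 24 and 9 counts in the RMS, or 7614, 4649 and 6181 CPM. Elsewhere the highest region stood at 4766, 2675 and 2562 CPM, so the RMS was above all 8 others in each section and its 3 values overlapped those of 1 region, ONL, when sections are mixed. The mean of 6148 ± 1483 CPM was 2.56 times the 2406 ± 662 of the other regions (log2 fold change 0.97, SE 0.19, edgeR adjusted p = 1.73e-04). Library sizes alone gave a log2 fold change of 1.35. The call was lost without section 1 (log2 fold change 0.30 beside the all-gene median of -1.02, adjusted p = 0.622), without section 2 (1.0, adjusted p = 0.0942), with no section block (0.85, adjusted p = 0.335) and with no filter on low counts (0.39 beside an all-gene median of -0.64, adjusted p = 0.636).

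The cystatin and cathepsin list was first of 9 regions in every section, and Cst3 held 157 of its 196 RMS counts. Without Cst3 its ranks were 3, 7 and 1. The microglia and lysosome list was likewise first of 9 regions in 3 of 3 sections, at 12158, 6780 and 11676 CPM, with Cst3 holding 157 of its 250 RMS counts. Its ranks without Cst3 were 3, 9 and 1. The defining microglial transcripts Cx3cr1, Tmem119, Aif1 and Itgam had 0 RMS counts. The astrocyte list had ranks of 2, 5 and 1 with Cst3 and of 4, 5 and 1 without it, and Cst3 was the only called member of its 23 tested genes. Apoe, the main lipoprotein of astrocytes, had 4728, 1744 and 4808 CPM beside means of 3737, 2365 and 2421 elsewhere (log2 fold change 0.01, edgeR adjusted p = 0.986).

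The classic neuroblast transcripts Dcx and Sox11 were close to the limit of detection. Dcx had 1, 3 and 1 counts, or 61.4, 581 and 687 CPM, beside 129, 236 and 296 in the other regions. The RMS was below that mean in section 1 and above it in sections 2 and 3. In sections 2 and 3 it was also above each of the other 8 regions, though from only 3 counts and 1 count. GCL-I came next there, at 396 and 405 CPM. The log2 fold change was -0.04 (SE 0.68, edgeR adjusted p = 0.984), beside a median of -0.41 for all genes. Sox11 had 1 count in section 1 and none in sections 2 and 3, too few to be tested. Of the 4 markers, Mbp and Cst3 were thus called higher against the mean of the other 8 regions, and a difference in Dcx or Sox11 was not detectable at this depth.

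The wider neuroblast and immature neuron list summed to 8720, 11817 and 14423 CPM from 142, 61 and 21 counts, and the RMS had ranks of 6, 3 and 1 among 9 regions. Of 24 tested members 1 was called higher (Sp9) and 1 lower (Gad1), with a median log2 fold change of -0.05 beside -0.41 for all genes. With library sizes alone the median was 0.38 beside -0.02. Of its 41 genes counted in the bulb, 39 had RMS counts. Tmsb4x, Meis2 and Tmsb10 had 22, 12 and 11 and were not called. Tuba1a, a tubulin of growing neurites, had 12, 2 and 0 counts and was not called (edgeR adjusted p = 0.850). Cd24a, a surface protein of neuroblasts, had 3 counts in section 1 and 0 in the other sections.

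Sp9 was the neuroblast-lineage gene called higher. It encodes a zinc-finger factor that acts in the development of olfactory bulb interneurons (chromosome 2, 73271925 to 73284706). The RMS had 9, 4 and 0 counts, or 553, 775 and 0 CPM, and E had 227, 252 and 235. The RMS was highest of all regions in sections 1 and 2 and had no count in section 3, where 0 of 1456 counts leaves an upper 95% Poisson limit of 2534 CPM. The log2 fold change against the other 8 regions was 2.0 (SE 0.56, edgeR adjusted p = 0.0408), and against E it was 0.90 (adjusted p = 0.494). Its relatives Sp8, Dlx1, Dlx2 and Dlx5, transcription factors of the same lineage, were not called, with 5, 5, 4 and 4 RMS counts.

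Cell cycle genes and the guidance system of the stream gave few counts. The proliferation list stood at 1044, 1162 and 0 CPM, with ranks of 6, 1 and 9 among 9 regions. Of its 17 genes counted in the bulb, 13 had no RMS count, among them Mki67, Top2a, Mcm2 and Cdk1, and Tuba1b held 15 of the list's 23 counts. The migration ligands and receptors had 49, 24 and 4 counts, or 3009, 4649 and 2747 CPM, with ranks of 6, 1 and 9, and their mean was 1.01 times that of the other regions. Of 8 tested members 0 were called, with a median log2 fold change of -0.33 beside -0.41 for all genes. Pafah1b1, Ntrk2 and Rac1, a microtubule motor regulator, a neurotrophin receptor and a small GTPase of cell motility, led with 11, 10 and 10 counts. Robo1, Slit1, Slit2, Prok2, Dcc and Cxcr4, which guide neuroblasts, had none, while Ncam1, the carrier of polysialic acid on these cells, had 6.

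Genes of ependymal cells, the ciliated lining of the ventricle, were first of 9 regions in 3 of 3 sections, at 2026, 1744 and 1374 CPM from 33, 9 and 2 counts. Dbi and Nnat, which other cell types also express, held 37 of the 44 counts. Without them the list was still first in sections 1 and 2, at 246 and 581 CPM beside at most 195 and 330 elsewhere, and had no count in section 3. Of the cilia genes, Fam183b had 2 counts and Rsph1 and Tekt1 had 1 each, while Foxj1, the master factor of motile cilia, and Dynlrb2 and Enkur had none. Neither of the 2 tested members was called.

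Cytosolic ribosomal protein genes were higher in sum in the RMS than in any other region in each section, at 43291, 29640 and 46016 CPM. E came second with 39567, 28483 and 28528 CPM, so in section 2 the gap was small. Of 74 tested genes 0 were called, and their median log2 fold change was 0.04 beside -0.41 for all genes. With library sizes alone 1 was called, Rplp1, and the median was 0.33 beside -0.02. In sections 1, 2 and 3, 52, 41 and 39 of the 74 lay above the mean of the other regions, beside 857, 899 and 531 of all 1996 genes.

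**Figure D3:**
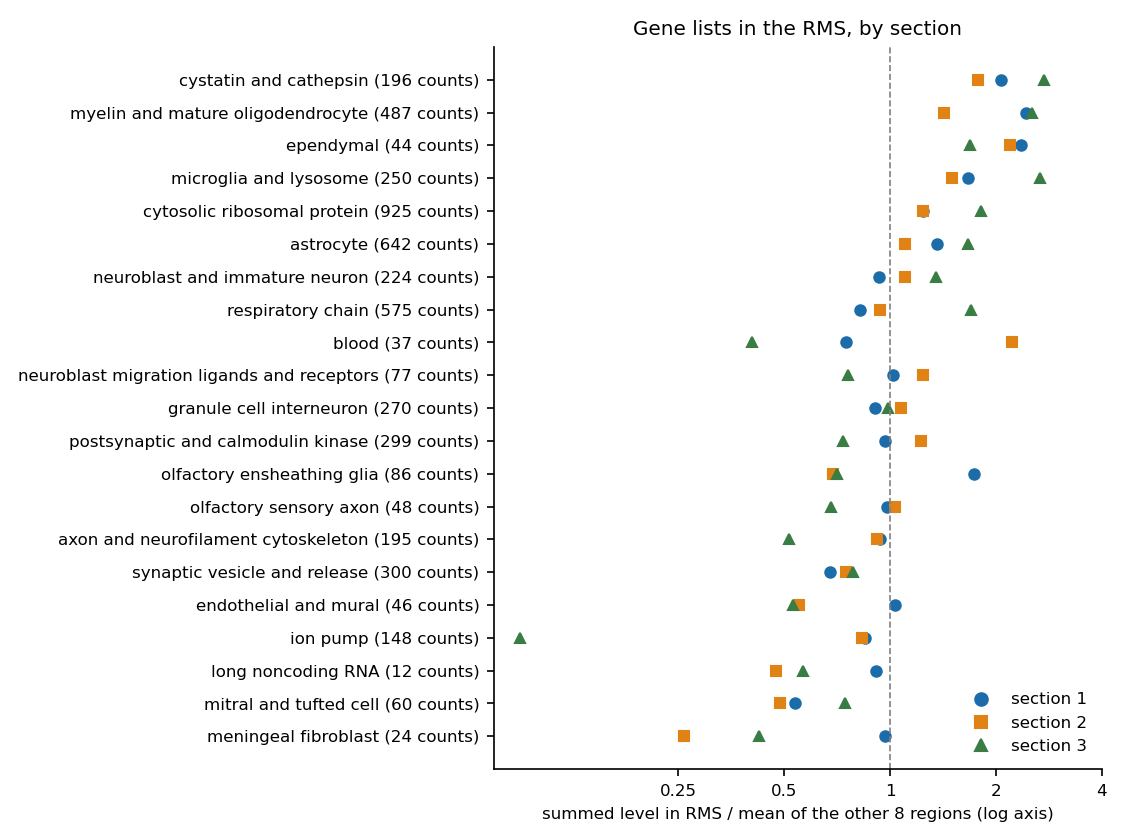
Summed level of each gene list in the RMS divided by the mean of the other 8 regions (log axis), by section, for the 21 lists with a count in every section; total RMS counts are in brackets. The cystatin, myelin, ependymal, microglial, ribosomal and astrocyte lists lie above 1 in all 3 sections (the cystatin, microglial and astrocyte lists all hold Cst3), and the lists below 1 in all 3 include synaptic vesicle, ion pump and mitral cell genes.

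Genes called lower included Gad1, Atp1b1, Mdh1, Syt1, Ppp1r9b and Trnp1. Gad1, the enzyme that makes GABA in the bulb's interneurons, had 22, 7 and 1 counts, or 1351, 1356 and 687 CPM. The other regions averaged 2625, 1914 and 1785 CPM, so the RMS was below that mean in 3 of 3 sections and was the lowest of 9 regions in sections 1 and 3. The log2 fold change was -1.12 (SE 0.30, edgeR adjusted p = 0.0314), and -0.81 with library sizes alone (adjusted p = 0.211).

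Atp1b1, the beta subunit of the sodium pump, was the lowest of all regions in every section, at 2702, 1356 and 0 CPM beside 3699, 2711 and 2769 elsewhere (log2 fold change -0.96, SE 0.25, edgeR adjusted p = 0.0314). Mdh1, the cytosolic malate dehydrogenase, was likewise lowest in every section, at 553, 194 and 0 CPM beside 1218, 794 and 828 (adjusted p = 0.0338). Syt1, the calcium sensor of synaptic vesicles, had 0, 3 and 1 counts, or 0, 581 and 687 CPM, beside 484, 1080 and 865 (adjusted p = 0.0207).

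Both Ppp1r9b, a scaffold of dendritic spines, and Trnp1, a nuclear protein, had 0 RMS counts in all sections. Both were called lower (edgeR adjusted p = 0.0119 and 0.0411). Their means in the other regions were 2.52 and 1.82 times a floor of 3 counts over the pooled RMS counts. Those means weigh the 3 sections equally, while section 1 holds 71.1% of RMS counts, so the ratios are not strict minimum folds. Ppp1r9b was the gene still called lower with library sizes alone (adjusted p = 0.0370). Every other lower call of this comparison missed the threshold under that scaling, with the same sign.

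The synaptic vesicle and release list was at the low end of the regions, at 14246, 10074 and 10989 CPM, with ranks of 9, 8 and 8. Of 27 tested members 1 was called lower (Syt1), and the median log2 fold change was -0.84 beside -0.41, or -0.52 beside -0.02 with library sizes alone. Snap25, a core fusion protein with 65 counts, was not called (2763, 2712 and 4121 CPM, adjusted p = 0.242). Granule cell genes had ranks of 5, 4 and 5, and Gad1 was the called member of 21. Mitral and tufted cell genes had a median log2 fold change of -0.83 with 0 of 13 called. Slc17a7 and Cdhr1 led that list with 9 and 8 RMS counts, while Tbx21, Eomes and Slc17a6 had none. Its summed level was above E in 2 of 3 sections.

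**Figure D4:**
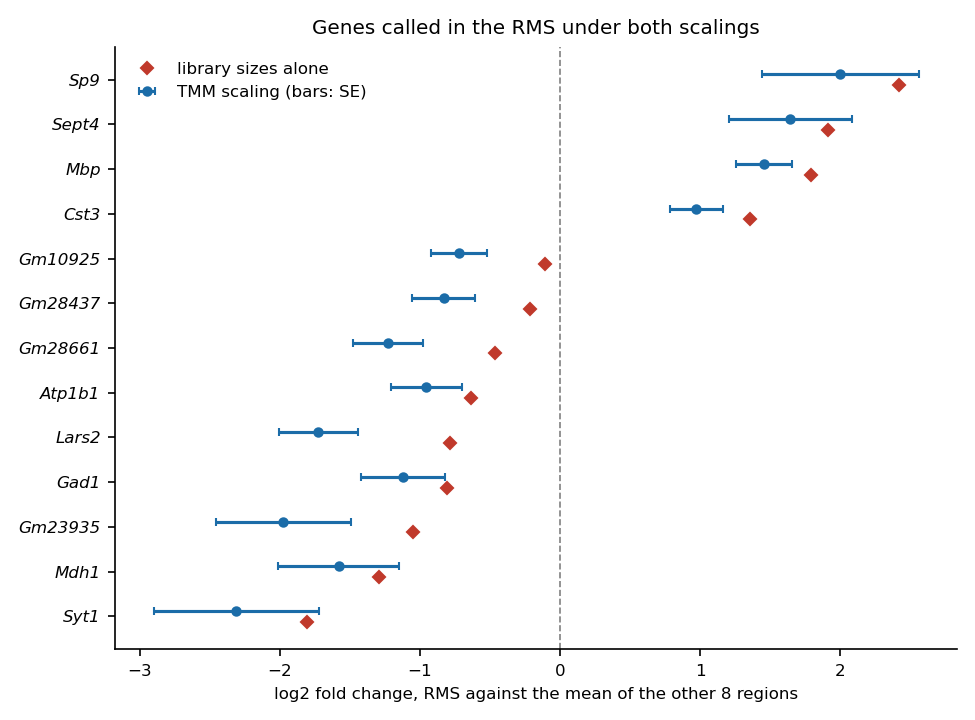
Log2 fold change of the RMS against the mean of the other 8 regions for 13 called genes with at least 1 RMS count, with TMM scaling (circles, bars are SE) and with library sizes alone (diamonds). The 4 higher genes lie right of 0 and the 9 lower genes left of it under both scalings, and library sizes alone move every gene to the right.

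Further lower calls were Lars2, Gm23935 and 4 sequences that resemble mitochondrial transcripts. Gm10925, Gm28437 and Gm28661 are 100% identical to mt-Atp6, mt-Co3 and mt-Co2 over 678, 783 and 681 bases, and Gm13339 is 96.7% identical to mt-Nd2 over 510 bases, so reads cannot be assigned between the copies with certainty. Gm10925 had 5281, 14142 and 11676 RMS CPM, above E in sections 1 and 2 (4644 and 12186) and below it in section 3 (12983). Its log2 fold change went from -0.72 with TMM to -0.11 with library sizes alone. Lars2, a mitochondrial leucyl-tRNA synthetase, had 0 CPM in section 1 and 10074 and 4808 in sections 2 and 3, beside 55.6, 16688 and 13926 elsewhere. Gm23935 had 123, 775 and 1374 CPM beside 29.3, 2581 and 2462. Levels of all 6 in the other regions were lower in section 1 than in sections 2 and 3, and the part of that in the calls was not tested.

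Against E, the region that encloses the RMS, 0 of 1996 genes (0%) were called by edgeR with TMM, with 256 at an unadjusted p under 0.05. Mbp and Cst3 had log2 fold changes of 0.83 and 0.68 and each an adjusted p of 0.121. Library sizes alone called 3 genes (0.15%), among them Mbp and Cst3, with log2 fold changes of 1.12 and 1.03 and an adjusted p of 1.45e-04 each. DESeq2 called Mbp, Cst3 and Fth1. Cst3 was above E in 3 of 3 sections (E had 3622, 2634 and 2446 CPM), as was Mbp (2623, 1706 and 1558 CPM). Without section 1 the log2 fold changes were -0.16 for Mbp and -0.01 for Cst3, where the median of all genes in that fit was -1.07.

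Against GCL-I, where most granule neurons lie, 13 genes (0.651%) were called, 3 higher and 10 lower. Mbp and Cst3 were again among the higher genes, with log2 fold changes of 1.34 and 1.38 (edgeR adjusted p = 7.66e-06 and 1.83e-06). Without section 1 these were 0.42 and 0.79 beside an all-gene median of -1.08, and neither was called. Gad1 was lower by a log2 fold change of -1.68 (SE 0.31, adjusted p = 2.82e-05), with 1351, 1356 and 687 CPM in the RMS and 3892, 2738 and 2599 in GCL-I, and no section of either region overlapped. Vamp2, the vesicle SNARE, had 1474, 775 and 0 CPM beside 3250, 1567 and 1534, and its log2 fold change was -1.41 (adjusted p = 0.00379). The lower genes with the largest folds were Ppp1r9b, Atp6v1d, Icam5, Nrxn3, Syt1 and Pfkp, which serve spines, vesicle acidification, neuronal adhesion, synapse adhesion, release and glycolysis, and each had from 0 to 5 RMS counts. With library sizes alone 17 genes (0.852%) were called, 13 higher and 4 lower. Gad1, Vamp2, Atp1b1 and Icam5 were those 4.

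Against ONL, the axon layer at the opposite face of the bulb, 50 genes (2.51%) were called, 3 higher (0.15%) and 47 lower (2.35%). With library sizes alone the count was 12 (0.601%), 3 higher and 9 lower. Mbp, Mobp and Cst3 were higher, with log2 fold changes of 2.12, 1.37 and 0.80 (edgeR adjusted p = 1.74e-12, 0.0410 and 0.0215). Without section 1 none of the 3 was called, and their log2 fold changes were 1.42, -0.35 and 0.32 beside an all-gene median of -1.14. Mobp, with no RMS count in section 3, passed in 6 of 13 alternatives and Cst3 in 7. Omp, the marker of mature olfactory sensory neurons, and Gng13, a G-protein subunit of their cilia, had 0 RMS counts. Their ONL means were 3.23 and 2.59 times the floor of 3 pooled RMS counts. The other lower genes with the largest folds, Gm13339, Gm12896, Trnp1 and Elovl5, also had 0 RMS counts. Their ONL means were 4.87, 3.21, 1.93 and 1.86 times that floor. Here too the means weigh sections equally and the floor does not, so the ratios are not strict minimum folds.

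The levels of both leading genes were followed outward from the RMS border. Distance is in spot spacings, and all spots within 25 spacings belong to E. In section 1 Mbp went from 6448 CPM inside the RMS to 4263 within 10 spacings, 2252 from 10 to 25 and 2192 from 25 to 50. In section 3 it went from 6181 to 3920, 1420 and 1187 over the same steps. In section 2 it was about level, at 1937, 2173, 1691 and 1638.

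Cst3 was lower with each of the first steps in all 3 sections. It went from 7614 to 4861 and 4115 CPM in section 1, from 4649 to 3306 and 2959 in section 2, and from 6181 to 4481 and 2698 in section 3. The myelin list went from 24501 to 17275, 12475 and 10909 CPM in section 1, from 11236 to 9919, 8191 and 8520 in section 2 and from 20604 to 12882, 8662 and 7393 in section 3. The synaptic vesicle list ran the other way, from 14246 CPM inside to 23635 at 50 to 100 spacings in section 1, from 10074 to 14898 in section 2 and from 10989 to 15242 in section 3.

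**Figure D5:**
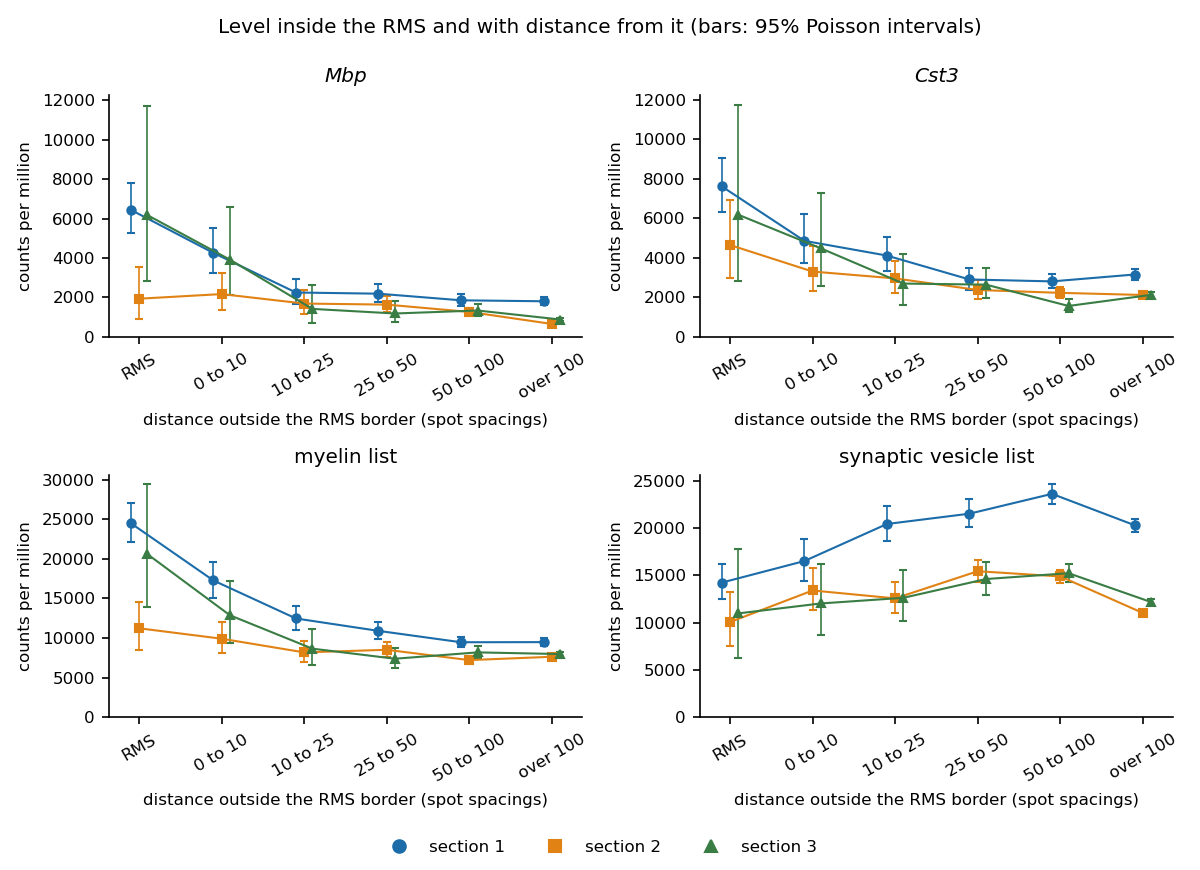
Level inside the RMS and in 5 bands of distance from its border, in CPM, by section, for 2 genes and 2 gene lists; bars are 95% Poisson intervals, which cover counting error only. The myelin list is highest inside the RMS in all 3 sections, while the synaptic vesicle list is highest at 50 to 100 spacings in sections 1 and 3 and at 25 to 50 in section 2.

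Inner and outer spots of the RMS were compared within each section, with no replicate and with intervals that cover counting error only. In section 1, spots deeper than the section's median distance from the border had 8662 CPM of Mbp (95% Poisson interval 6753 to 10944), and the outer spots had 4266 (2972 to 5933). Section 2 had 1855 and 2027 CPM of Mbp from 5 counts each, and section 3 had 6 inner and 3 outer Mbp counts. The myelin list stood at 31308 CPM inside and 17796 outside in section 1, at 11503 and 10945 in section 2 and at 19206 and 22222 in section 3. Its intervals for inner and outer spots overlapped in sections 2 and 3.

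Values were also compared between the patches of the 2 bulbs. In section 1 the patch at lower array columns had 5298 CPM of Mbp and 6899 of Cst3, and the other patch had 7591 and 8325. In section 2 the values were 1439 and 2519 CPM for Mbp and 3237 and 6297 for Cst3. In section 3 the smaller patch gave 1 count of each gene and the larger 8.

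Fth1, Aplp1, Sez6, Sept4 and Cst3 were the 5 genes whose levels across the 27 sums most resembled Mbp, with Pearson correlations of 0.755, 0.728, 0.720, 0.720 and 0.714. These were computed on log2(CPM + 10) after section means were removed, among 90 genes with at least 20 RMS counts. The sums share sections and differ in depth, so the values describe likeness in these libraries. The cut on RMS counts favours genes that are high in the RMS, as Mbp is, and Sept4 met it with 20. Sept4 and Cst3 had also been called higher there, so their likeness is no separate support.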

How the data were processed

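Poly(A) RNA counts from spatial arrays of 3 sections were analysed from the authors' deposited files: raw counts per spot and gene, whole numbers with no normalization, and a region name per spot. The aligner, the counter and whether counts are unique molecules are not given in the sources used here. Per the submitters' processing notes, reads were placed on mm10; gene positions came from GENCODE M21. Each count entry took its region from the spot with the same pixel coordinates, found for 100% of entries. Counts without a gene name (0.0325%, 0.0764% and 0.0801% of the totals of 344260, 650393 and 505305) and spots of unknown region were left out.

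Counts were summed per section and region. edgeR 4.0.16 (R 4.3.3) was run on the 27 sums with TMM, filterByExpr by region (minimum count 10), region and section in the model, and adjustment over 1996 genes. Section is a block because regions of a section share tissue and array. Their deviations from region means correlated at 0.405 within a section, and those of the RMS with its own section at 0.22. The value across sections, -0.21, follows from subtracting region means and is no separate support for the block. On simulated counts of the same depths, TMM scaling gave false calls in the RMS more often than the threshold allows. No simulated result is given here by direction or for library sizes alone, so the simulation does not rank the scalings. Of the 13 genes called lower with TMM against the other 8 regions, library sizes alone called 1. These lower calls are to be read with care. Intervals are exact Poisson.

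The members and all 25 gene lists were chosen with earlier results of these data known. Named genes were the 4 given markers, all genes called against the other 8 regions, the 6 largest called folds per direction in each pair with at least 20 counts, the 15 genes with the most RMS counts where a result uses them, list members with the most RMS counts or called, and the 5 genes most like Mbp; some genes that this rule takes are counted but not reported here by name. List members outside this rule (those with 0 counts, first in 3 sections, or counted in section 1 only), and the lists without leading genes, were chosen after their values were seen. Alternatives were RLE scaling, library sizes alone, no filter, no block, each section left out, DESeq2 1.42.0, the RMS sum of section 3 left out, border spots (within 5 spacings) left out and a join by spot name; TMMwsp scaling and the 300 most abundant genes were added after seeing the data. Genes like mitochondrial transcripts were found with blastn 2.17.0.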

Additional observations from a re-analysis of the deposited data

How the results depend on the processing

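Section 1 holds 71.1% of RMS counts, and no gene was called higher than in the other 8 regions without it. The main fit tested 1996 genes, and some alternatives tested other numbers, so their counts of calls are not alike. There were 19621 with no filter, 2369 without the RMS sum of section 3 and 1098 without border spots. Leaving out section 1, 2 or 3 gave 2143, 1768 and 1907 tested genes. Against the other 8 regions, 18 genes were called, and 8 with RLE scaling, 10 with library sizes alone, 44 with no filter on low counts, 9 without the RMS sum of section 3, 6 without border spots and from 3 to 11 with a section left out. Against E, 0 genes were called, and 3 with RLE, 3 with library sizes alone, 98 with no filter, 3 with DESeq2, 1 without the RMS sum of section 3, 5 among the 300 most abundant genes and from 0 to 2 with a section left out. Against GCL-I, 13 were called, and 65 with no filter, 5 without border spots, 27 among the 300 most abundant genes and from 3 to 5 with a section left out. Against ONL, 50 were called, and 12 with library sizes alone, 25 with DESeq2, 23 without the RMS sum of section 3, 21 without border spots, 16 among the 300 most abundant genes and from 13 to 52 with a section left out. Without the section block (no pairing of regions by section) 1, 0, 0 and 4 genes were called in the 4 comparisons. With no filter, most calls were lower in the RMS. These were 43 of 44 against the other 8 regions, 98 of 98 against E and 65 of 65 against GCL-I. The causes were not tested.

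Leaving out a section moved the log2 fold change of Mobp against ONL between -0.35 and 1.62, of Mbp against E between -0.16 and 1.06 and of Cst3 against E between -0.0084 and 0.80, and with no filter Cst3 against E was -0.074 beside an all-gene median of -0.95. The lowest of each range came without section 1, where the all-gene medians were -1.14 against ONL and -1.07 against E, and both Mbp and Cst3 were above E in CPM in sections 2 and 3. Mbp against the other 8 regions kept its sign in 13 of 13 alternatives and passed in 11, with adjusted p-values from 3.13e-16 to 0.419. Cst3 kept its sign in 13 and passed in 9 (1.02e-11 to 0.636). Sept4 passed in 4 of 12 and Sp9 in 5 of 11. Counts per 100 spots differed from the other regions by -0.59 to -0.12 with a section left out.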

Other observations

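Several other gene groups were measured in the RMS and did not stand apart. Respiratory chain genes encoded in the nucleus had 27080, 17048 and 31593 CPM with ranks of 9, 6 and 1 among 9 regions, with 0 of 59 tested members called (median log2 fold change -0.45). Immediate early genes, which mark recent neuronal activity, had 35, 3 and 0 counts, led by Egr1 with 11 and Nr4a1 with 10. Their ranks were 5, 8 and 9, and 3 tested members had a median log2 fold change of -0.84 beside -0.41 for all genes. Endothelial and mural genes had 37, 7 and 2 counts, led by Sptbn1 and Bsg, which other cells also express, and Flt1 and Cdh5 had none. Haemoglobin and other blood genes had 20, 16 and 1 counts, with 1228, 3100 and 687 CPM, with ranks of 5, 1 and 9. Meningeal fibroblast genes rested on Ptgds, which held 21 of their 24 counts, and Dcn, Lum and Col1a1 had none. Their ranks were 2, 9 and 8, and 1 of 2 tested members was called lower against ONL.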
